A study of Mus musculus with 3 samples.

Results

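A pair of 3' libraries, which read the ends of polyadenylated transcripts, was compared gene by gene: one labelled knock, the other labelled control. They are 2 of the 3 samples of the series and were chosen by their labels alone. The third sample, read by CBTi-seq, holds control and knock columns of its own and is used here only for values set side by side. Counts were found for 19932 genes in either 3' library, 5701 of them averaging 20 CPM or more (the count of a gene scaled to a common library total) and 2826 averaging 50 CPM or more.

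Both libraries came from L929, an established line of mouse connective tissue fibroblasts, and the series set cells with a knockdown of Rrm2 against control cells. The labels give no time, no reagent and no strain for the knockdown. One protocol text stands with both libraries: cells were picked singly with a capillary, and RNA was copied from an oligo dT primer and amplified by PCR. Each library was deposited as 8 numbered columns, and the sources used here do not say whether a column is a cell, a pool or a repeat. With 1 library per label there is no replicate culture, so no difference below carries a test, and differences are described by their size. Fewer cells of a type and less RNA per cell cannot be told apart in such values.

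Ribonucleotide reductase turns ribonucleotides into deoxyribonucleotides, the building blocks of DNA. Its large subunit is encoded by Rrm1, and its small subunit by Rrm2 in dividing cells or by the p53-inducible Rrm2b. Rrm2 is transcribed with the genes of S phase, when DNA is copied, so its level follows the number of cycling cells as well as any knockdown. Genes of DNA replication are switched on by E2F factors at the entry to S phase, and genes of mitosis follow in G2 through a promoter element called the CHR.

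Rrm2, the gene to be knocked down, was higher in the library labelled knock. Its locus (GRCm38) is the plus strand of chromosome 12, bases 24708241 to 24714146, and no other annotated gene overlaps it. Its columns ranged from 29.2 CPM over a median of 38.8 to 49.6 in the library labelled control, and from 123.0 over 154.4 to 172.9 in the library labelled knock. All knock columns lay above all control columns. The log2 ratio of knock to control was 1.92, with an exact 95% interval of 1.74 to 2.12 that covers counting error only, and it was 1.77 to 1.96 under other scalings, with equal weights per column and after thinning. Each library is therefore called by its label, and the direction of every difference below rests on labels that Rrm2 goes against.

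Rrm1 differed in the same direction as Rrm2, and Rrm2b in the other. Rrm1 columns ran from 20.4 to 36.5 CPM for control and from 68.7 to 124.9 CPM for knock, a log2 ratio of 2.05 (1.81 to 2.30). Rrm2b columns ran from 138.9 to 198.4 CPM and from 85.7 to 105.4 CPM, a log2 ratio of -0.76 (-0.89 to -0.63). Neither gene's groups of columns overlapped.  Rrm1 and Rrm2b share stretches of the same strand with another annotated gene, as do 98 of the 459 genes named here by rule, and 167 share one on the opposite strand. How the counting assigned reads in such stretches is unknown, so their values, among them those of Incenp, Mcm7, Dnmt1, Exo1, Rpl5, Gsn and the snoRNA hosts below, are uncertain to that extent.

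**Figure D1:**
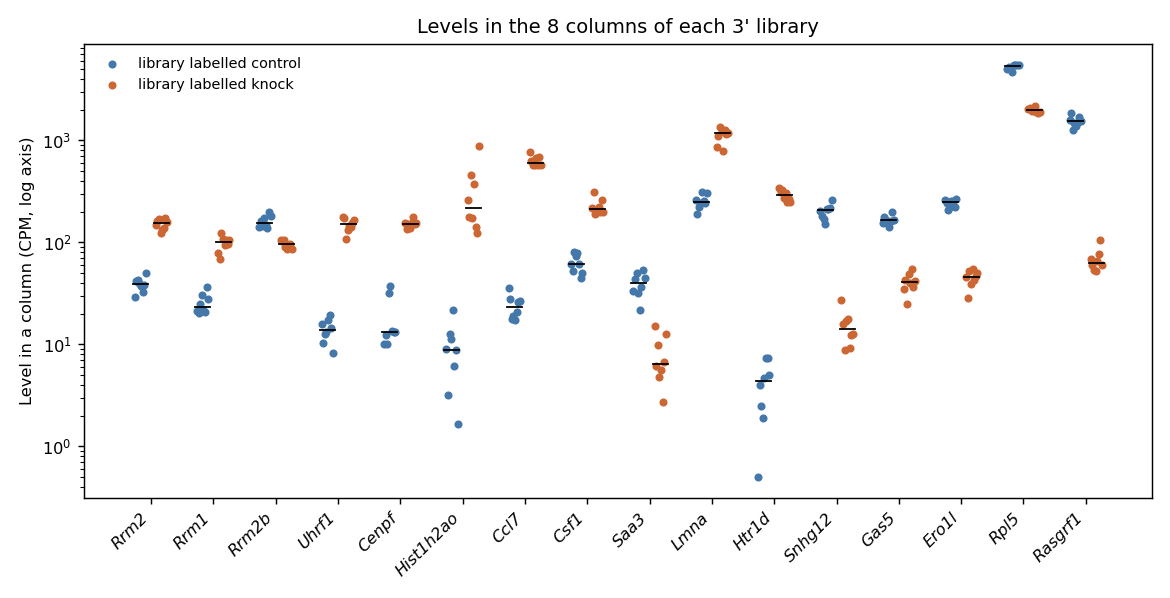
Level of 16 genes in each of the 8 columns of the 2 libraries, in CPM on a log axis. Points are columns, black lines their medians, and the 1 column without a count of Htr1d is drawn at the foot of the axis. The groups of columns are apart for every gene shown, and columns of Hist1h2ao in the library labelled knock spread from 123.2 to 885.6 CPM.

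The libraries held 7067278 counts (labelled control) and 9162364 (labelled knock), with 399393 to 2496457 and 814960 to 1973137 per column, and 3 counts made 0.424 and 0.327 CPM. Column 2 of the library labelled control held 35.3% of that library. Over genes at 20 CPM or more, Pearson's r of log2(CPM + 1) between columns was 0.898 to 0.952 within the library labelled control, 0.941 to 0.962 within the one labelled knock and 0.770 to 0.806 between them. Beyond counting error, the median coefficient of variation of a gene across columns was 12.2% and 9.92%. Fibroblast markers were present, with a count for 12 of 13 in the library labelled control and 13 of 13 in the other, and summed column levels of 2591 to 3110 and 4067 to 4340 CPM. Thy1 was at 1.70 and 0.546 CPM, and Col3a1 had 0 and 6 counts. Of the macrophage markers Ptprc, Tyrobp, Fcer1g and Itgam had no count, and Cd68, a lysosomal protein gene that fibroblasts also express, made most of that list's 99.2 and 171.9 CPM. Of the epithelial markers Krt18, Krt14, Krt5, Cldn4 and Cldn7 had no count, while Cdh1 was at 188.0 and 110.5 CPM. Endothelial markers had a count for 7 of 8 and 6 of 8, none reached 20 CPM, and they summed to 34.5 and 39.6 CPM. Neuron and glia markers summed to 48.4 and 37.0 CPM, and muscle markers to 34.7 and 72.3 CPM. Lymphocyte, adipocyte and erythroid markers summed to less than 7 CPM in each library.

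Among the 2826 genes at 50 CPM or more, the ratio of knock to control reached 2-fold upward for 377 (13.3%) and downward for 128 (4.53%). Lists of genes are described over members at 20 CPM or more, where 986 of 5701 genes (17.3%) were 2-fold higher and 324 (5.68%) 2-fold lower. Of these 5701 genes 3350 (58.8%) had a ratio above 1 and the median log2 ratio was 0.18. All 8 knock columns lay above all 8 control columns for 1207 genes (21.2%) and below them for 457 (8.02%). These shares are the background for each count of list members given below. Scaling by TMM or median-of-ratios factors moved every log2 ratio by -0.15 or -0.16, and totals without mitochondrially encoded and ribosomal protein genes by -0.14. Of the genes 2-fold apart 74.7% were higher with the library totals, 58.4% with TMM factors (276 higher and 197 lower), 58.1% with median-of-ratios factors (276 and 199) and 60.4% without those genes in the total (288 and 189).

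**Figure D2:**
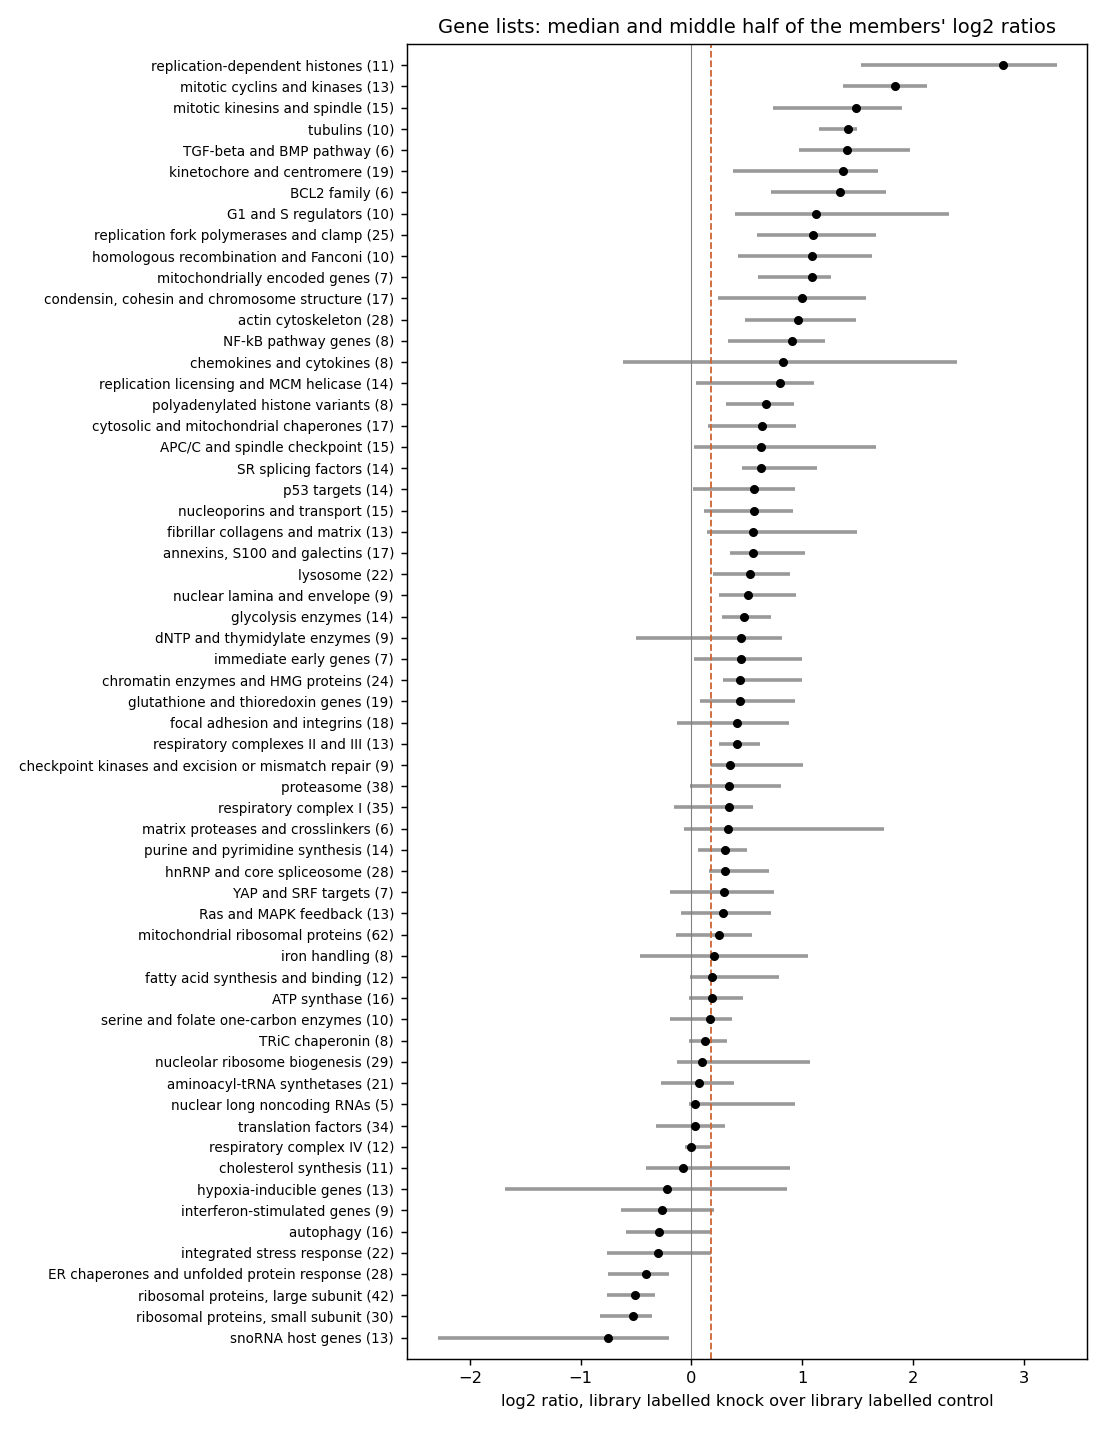
Gene lists with at least 5 members at 20 CPM or more, ordered by the median log2 ratio of the library labelled knock to the one labelled control (x axis). Points are medians, grey bars the middle range from the lower to the upper quartile, numbers in brackets the members, and the dashed line the median of all 5701 genes, 0.18. Histone and mitotic lists stand at the top and snoRNA host and ribosomal protein lists at the foot.

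Cell cycle genes were the broadest difference, with higher levels under the knock label for steps from G1 to cytokinesis, histones and DNA repair included. Over 12 lists, 145 of 165 measured members were higher, 92 of them by 2-fold or more, while 2 were that much lower, and the members' median was 1.08 in log2 units. With TMM factors 136 members were higher and 75 at least 2-fold. Counting every member without a limit on level, these genes held 0.903% to 0.970% of the counts of a control column and 1.75% to 1.83% of a knock column. The columns of 93 members were all above, and of 2 all below.

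Mitotic cyclins and kinases had a median of 1.84, with all 13 measured members higher and 12 at least 2-fold. The cyclin A gene Ccna2, which pairs with kinases in S phase and G2, had columns from 0 over a median of 4.24 to 9.93 CPM in the library labelled control. In the library labelled knock they ran from 28.3 over 56.3 to 62.6 CPM, so the log2 ratio was 3.66 (3.12 to 4.25). Plk1, a kinase of mitotic entry, had a log2 ratio of 2.36 (2.00 to 2.73), and Aurkb, the kinase of the chromosomal passenger complex, of 2.12 (1.79 to 2.47). Ccnb2, a cyclin partner of Cdk1, went from 20.2 to 44.7 CPM over the control columns to 116.4 to 154.1 over the knock columns. Bub1, a spindle checkpoint kinase, and Ccnf, an F-box protein, had log2 ratios of 1.94 and 2.26, and the groups of columns of both were apart.

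Kinetochore and centromere genes had a median of 1.37, with 18 of 19 members higher and 11 at least 2-fold. Cenpf, a large kinetochore protein of G2 and mitosis, had columns from 10.0 over 13.2 to 37.4 CPM and from 135.0 over 152.7 to 177.8 CPM, and a log2 ratio of 3.26. Incenp, Birc5 and Cdca8, which together with Aurkb form the passenger complex, had log2 ratios of 3.02, 1.44 and 1.63. Cenpa, the histone H3 of the centromere, was at 83.2 and 235.9 CPM. All 5 genes named here had knock columns above every control column.

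Mitotic kinesins and spindle genes had a median of 1.48, with 13 of 15 members higher and 10 at least 2-fold. Hmmr, a spindle protein, had 9.34 and 70.8 CPM and a log2 ratio of 2.92 (2.56 to 3.31), and Racgap1 and Ect2, partners in cytokinesis, had log2 ratios of 1.70 and 2.13. Pttg1, the securin that holds separase in check, was at 206.3 and 444.4 CPM. Genes of the anaphase promoting complex (APC/C) and the spindle checkpoint had a lower median of 0.63, with 11 of 15 members higher. Within that list Cdc20, which activates the APC/C, had a log2 ratio of 2.21, and Fbxo5, which inhibits it, of 2.34 (2.13 to 2.55). The core subunit Anapc11, the member with the most counts, was at 358.8 and 555.3 CPM.

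Condensin, cohesin and chromosome structure genes had a median of 0.998 over 17 members, of which 16 were higher. The condensin subunits Smc2, Smc4 and Ncaph had log2 ratios of 1.71, 1.08 and 2.58. Esco2, which acetylates cohesin in S phase, was at 11.5 and 79.1 CPM. Nipbl, the cohesin loader, did not separate the libraries, with columns of 100.9 to 134.2 and 113.0 to 127.6 CPM.

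The CHR is the 6-base sequence TTTGAA, bound by the MuvB complex in promoters of late cell cycle genes. It was searched on both strands from 250 bases before to 50 after the start of each gene in RefSeq's table (GRCm38.p6), where 27016 genes have a promoter. It occurred in 21 of 27 promoters of the kinesin and spindle list (77.8%), 8 of 16 of the cyclin and kinase list (50.0%) and 12 of 31 of the kinetochore list (38.7%), against 20.2% of all promoters. Among genes at 20 CPM or more 14.8% had it. The 3 windows below, on the strand of each gene, are shown because these genes had large ratios and a CHR near the start. Capitals mark the CHR.
Cenpf, chr1:189688067-189688109, minus strand: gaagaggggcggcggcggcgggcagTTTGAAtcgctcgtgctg
Hmmr, chr11:40733418-40733454, minus strand: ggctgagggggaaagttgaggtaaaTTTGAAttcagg
Ccnf, chr17:24251509-24251564, minus strand: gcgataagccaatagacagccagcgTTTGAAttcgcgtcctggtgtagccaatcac
The CHR of Cenpf and Hmmr lies just after the RefSeq start, at bases 3 and 9, and that of Ccnf 130 bases before it. Members of the cyclin and kinase list with the motif had a median log2 ratio of 1.91 (5 genes), and those without it of 1.42 (5 genes). The medians were 1.37 (7 genes) and 0.96 (8 genes) in the kinetochore list and 1.70 (9 genes) and 1.03 (5 genes) in the kinesin and spindle list. A match of letters is a description and shows no binding.

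S phase genes differed in the same direction, less evenly. Of the licensing and MCM helicase list 10 of 14 members were higher, 5 of them at least 2-fold, and the median was 0.80. Of the helicase subunits, which unwind DNA, Mcm3 was at 12.3 and 60.3 CPM (log2 ratio 2.29, 1.96 to 2.63), Mcm7 had a log2 ratio of 1.82, Mcm6 of 1.12 and Mcm2 of 0.84. Dbf4, which activates the kinase that fires origins, had columns of 19.2 to 45.2 and 84.7 to 105.8 CPM. Orc4, an origin binding subunit, was lower, at 29.7 and 14.8 CPM, and its columns overlapped. Gmnn, the inhibitor of licensing, was at 103.7 and 174.2 CPM.

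**Figure D3:**
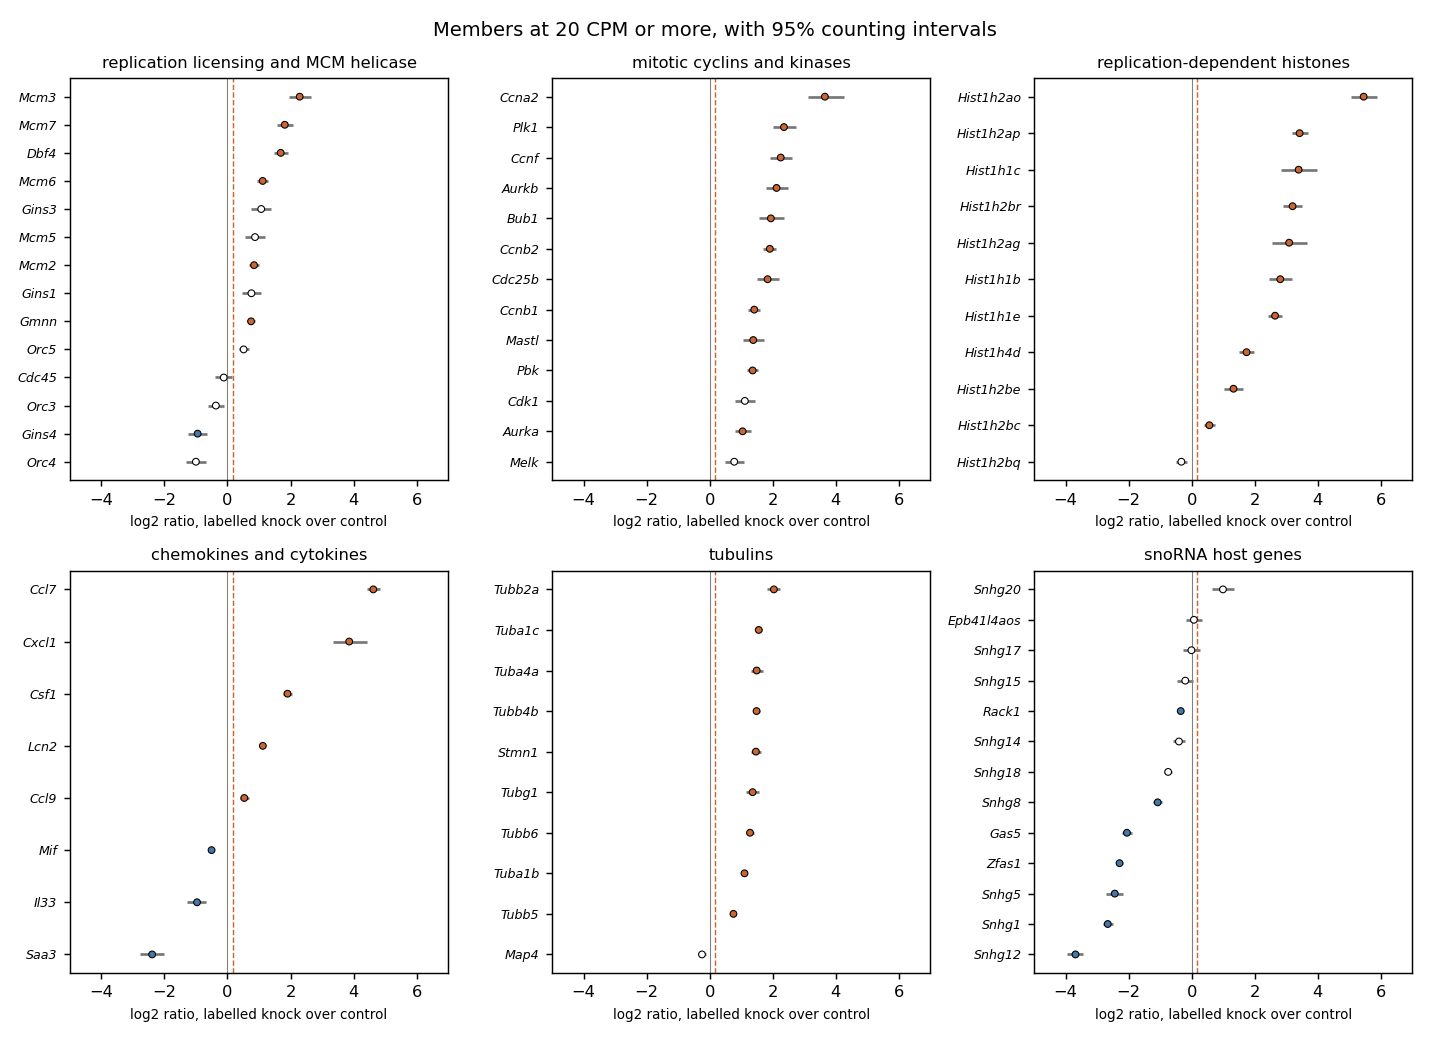
Log2 ratio of knock to control (x axis) for each member at 20 CPM or more of 6 gene lists, with exact 95% intervals for counting error. Filled points are genes whose groups of columns do not overlap, orange above and blue below, open points overlap, and dashed lines mark the median of all genes, 0.18. All 13 mitotic cyclins and kinases lie above 0, while snoRNA host genes run from -3.69 to 0.99.

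Replication fork genes had a median of 1.09, with 21 of 25 members higher and 16 at least 2-fold (12 with TMM factors). Uhrf1, which reads half-methylated DNA behind the fork, had columns from 8.27 over 13.9 to 19.5 CPM and from 108.9 over 149.9 to 179.1 CPM. Its log2 ratio was 3.48 (3.18 to 3.80). Dnmt1, the methyltransferase that Uhrf1 recruits, had one of 3.16 and Hells, a remodeller of the same pathway, of 2.60. Chaf1b, a subunit of the chaperone that lays histones on new DNA, had a log2 ratio of 2.82, and Lig1, the ligase that joins Okazaki fragments, of 1.81. Top2a, the topoisomerase that untangles sister DNA, was at 110.8 and 326.2 CPM, and Pole4, a small polymerase subunit, at 230.5 and 208.7 CPM. Pcna, the sliding clamp, was at 41.5 and 86.7 CPM and was chosen after its value was seen.

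Regulators of G1 differed strongly and not all one way. Of 10 members 9 were higher and the median was 1.12. The D cyclins, which drive exit from G1, were higher, Ccnd1 with columns of 5.67 to 24.8 and 84.8 to 104.5 CPM (log2 ratio 2.73) and Ccnd2 at 145.2 and 334.6 CPM. Their partner Cdk6 was at 41.3 and 207.7 CPM (log2 ratio 2.33), while the other partner, Cdk4, was at 233.0 and 267.9 CPM with overlapping columns. E2f2 was at 4.10 and 36.5 CPM. Myc was the exception, with columns of 35.9 to 85.0 CPM in the library labelled control above all those of the other, at 13.6 to 28.8 CPM (log2 ratio -1.19, -1.45 to -0.94).

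E2F factors bind 8-base sites, of which TTTCCCGC and TTTGGCGC were searched on both strands. The first occurred in 5 of 18 promoters of the licensing list (27.8%) and 4 of 29 of the fork list (13.8%), against 1.24% of all promoters. The second occurred in 22.2% and 10.3%, against 0.585%. Among genes at 20 CPM or more 2.34% had the first site and 1.11% the second. Windows of 4 genes from these lists are shown, with the site in capitals as it reads on the strand of the gene, so that GCGGGAAA and GCGCCAAA are sites on the other strand.
Mcm7, chr5:138172016-138172073, minus strand: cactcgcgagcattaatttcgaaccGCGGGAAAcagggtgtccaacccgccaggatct
Gins3, chr8:95633493-95633550, plus strand: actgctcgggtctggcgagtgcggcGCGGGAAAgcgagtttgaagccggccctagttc
Mcm6, chr1:128359783-128359840, minus strand: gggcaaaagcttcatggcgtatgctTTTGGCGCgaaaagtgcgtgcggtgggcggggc
Pola1, chrX:93632261-93632318, minus strand: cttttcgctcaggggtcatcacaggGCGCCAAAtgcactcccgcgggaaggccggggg
Licensing genes with the first site had a median log2 ratio of 1.44 (4 genes) and those without it of 0.84 (7 genes). In the fork list the order was the other way, at 0.54 (4 genes) and 1.47 (17 genes). With and without the second site the medians were 1.12 (3 genes) and 0.68 (8 genes) for licensing, and 2.13 (2 genes) and 1.31 (19 genes) for the fork.

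Enzymes of nucleotide supply differed less than the fork. The list of deoxyribonucleotide and thymidylate enzymes had a median of 0.45, with 5 of 9 members higher and 4 lower. Cmpk1 and Dctd were among the lower ones, with log2 ratios of -0.68 and -0.59. Tyms, which makes thymidylate, had columns of 96.0 to 145.0 and 218.5 to 280.5 CPM, a log2 ratio of 1.25, and Dtymk, which phosphorylates it, a log2 ratio of 1.38. The columns of Dut, which breaks down dUTP, overlapped at a log2 ratio of 0.45. Purine and pyrimidine synthesis genes had a median of 0.30 over 14 members, with 2 at least 2-fold higher, Ctps at 1.68 and Adssl1 at 2.30.

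Replication-dependent histone genes had the highest median of any list, 2.81, with 10 of 11 members higher and 9 of them at least 2-fold. Most of their mRNAs end in a stem-loop and carry no poly(A) tail, so an oligo dT primer reads them poorly, and the values are levels of whatever histone RNA it copied. The linker histone genes Hist1h1e and Hist1h1b were at 25.2 and 157.3 CPM and at 9.48 and 66.4 CPM, and Hist1h1c had a log2 ratio of 3.39 (2.84 to 3.99). Hist1h2br had columns of 9.75 to 18.0 and 103.5 to 165.3 CPM. Hist1h2bc (0.56) and Hist1h2bq (-0.33) were the members with the lowest ratios, and the columns of Hist1h2bq overlapped.

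Hist1h2ao had the largest ratio of the list and the widest spread among columns. Its columns ran from 1.66 over 8.87 to 21.8 CPM in the library labelled control and from 123.2 over 219.4 to 885.6 in the other, which made the log2 ratio 5.45 (5.06 to 5.87). Hist1h2ap, whose bases around the CCAAT box are the same, ran from 1.66 over 15.5 to 24.9 CPM and from 34.5 over 201.1 to 338.4 CPM. Histone genes of a class have nearly the same sequence, so counts may be split between copies and the value of a single copy is uncertain. The CCAAT box, CCAAT or on the other strand ATTGG, occurred in 52 of 61 histone promoters (85.2%) against 41.1% of all. The TATA box, TATAAA, occurred in 57.4% against 15.7%. All 9 members at 20 CPM or more with a promoter had the CCAAT box. The TATA box was in 3 of these, with a median log2 ratio of 2.64, against 3.29 for the 6 without it. The windows of both genes around the CCAAT box, in capitals, are shown because their letters are the same.
Hist1h2ao, chr13:21810245-21810299, plus strand: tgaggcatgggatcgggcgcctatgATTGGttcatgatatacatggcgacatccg
Hist1h2ap, chr13:21833643-21833697, minus strand: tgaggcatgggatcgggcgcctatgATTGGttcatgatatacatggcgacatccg
The list of histone genes with polyadenylated mRNA had a median of 0.68 over 8 members. It also holds Hist1h1c, a member of both lists, for which polyadenylated mRNA is known and which had the highest ratio here. H2afz was at 580.0 and 1051 CPM and H2afx at 63.1 and 136.4 CPM, while H3f3b was at 661.2 and 673.5 CPM with overlapping columns.

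Measured repair genes were mostly higher in both lists, with unlike medians. Homologous recombination and Fanconi genes had a median of 1.09 with 9 of 10 members higher, 0.91 above the median of all genes and 0.45 above it without column 2 of the library labelled control. Exo1, the exonuclease that resects broken ends, was nearly absent from the library labelled control, at 0 to 3.61 CPM, and at 47.1 to 70.3 CPM in the other. Its log2 ratio was 5.03 (4.24 to 5.95), and 6.10 without that column. Brca1, a scaffold of the same repair pathway, had a log2 ratio of 1.33 with overlapping columns. Fance, of the Fanconi core complex, had a log2 ratio of 2.63, and 1.87 without column 5 of the library labelled knock. Checkpoint, excision and mismatch repair genes had a median of 0.35, with ratios above 1 for all 9 members (7 with TMM factors) and groups of columns apart for 2. At least 2-fold higher were 3 of these 9 and 5 of the 10 recombination and Fanconi genes (2 and 5 with TMM factors). Summed over all members, the log2 ratios of these lists were 0.58 and 0.71.

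Targets of p53 went both ways. Of 14 members 10 were higher, and the median was 0.56. Cdkn1a, the inhibitor of cyclin-dependent kinases, had columns of 236.2 to 335.5 and 524.5 to 621.1 CPM (log2 ratio 0.95), and Mdm2, which degrades p53, a log2 ratio of 1.30. Gadd45a and Sesn2, which also answer to other stresses, were lower at -1.40 and -1.17, with the groups of columns apart. Rrm2b, a p53 target too, was lower as given above. In the BCL2 family the guardians of survival Mcl1 and Bcl2l1 were at 57.3 and 165.8 CPM and at 49.4 and 175.8 CPM. The killers Bad and Bok were also higher, at log2 ratios of 1.14 and 2.08.

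Ribosomal protein genes held the largest share of the counts that differed. They took 23.6% to 24.7% of each control column and 15.6% to 16.3% of each knock column. Of the large subunit 40 of 42 members were lower, with a median of -0.51, and the columns of 31 were all below. Of the small subunit 29 of 30 were lower, with a median of -0.53 and the columns of 26 all below. With TMM factors all 72 were lower. Most of these ratios stayed under 2-fold, with 4 large and 6 small subunit genes beyond it (9 and 7 with TMM factors).

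The members did not differ by the same amount. Rpl5, which carries the 5S RNA into the ribosome, had columns from 4667 over 5339 to 5545 CPM and from 1844 over 1989 to 2179 CPM, a log2 ratio of -1.39 (-1.41 to -1.36). Rps24 was at 2449 and 888.7 CPM (-1.46), Rps12 had a log2 ratio of -1.22 and Rpl10 of -1.23. The member with the most counts, Rpl41, was at 18883 and 13018 CPM (-0.54). Rps15 overlapped between libraries, at 5524 to 9229 and 5019 to 6071 CPM. Ribosomal protein genes have many near-identical pseudogenes, so how reads were shared between copies bears on each value, and processed pseudogenes held 4.92% and 4.16% of all counts.

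**Figure D4:**
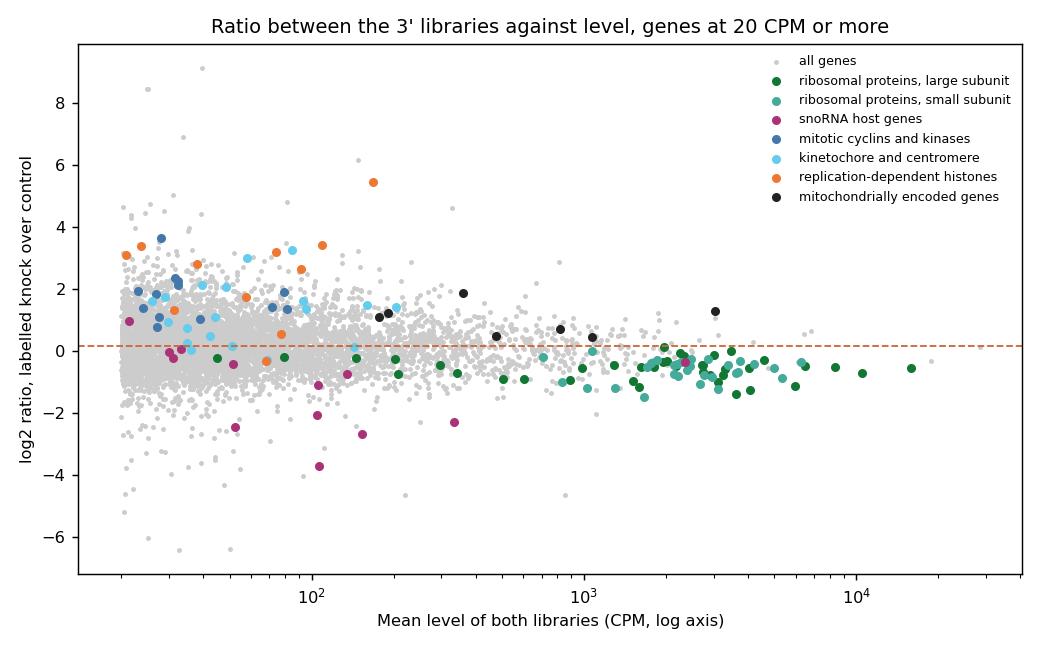
Log2 ratio of knock to control (y axis) against mean level in CPM (log x axis) for the 5701 genes at 20 CPM or more in grey, with 7 lists in colour. The dashed line is the median of all genes, 0.18. Ribosomal protein genes lie at high levels below the line, and mitotic, histone and mitochondrially encoded genes above it.

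The snoRNA host genes, whose introns carry the small RNAs that guide ribosomal RNA modification, differed more than the ribosomal protein genes. Of 13 members 11 were lower, 6 of them at least 2-fold, and the median was -0.75. Snhg12 had columns from 153.1 over 206.9 to 259.8 CPM in the library labelled control and from 8.86 over 14.3 to 27.5 CPM in the other, a log2 ratio of -3.69 (-3.95 to -3.44). Snhg1 (-2.66), Snhg5 (-2.44), Zfas1 (-2.29), Gas5 (-2.06) and Snhg8 (-1.08) followed, and each had all knock columns below all control columns. Rack1, a host gene that encodes a scaffold protein of the ribosome, was at 2627 and 2061 CPM. Snhg15, Snhg17, Epb41l4aos and Snhg20 overlapped, with log2 ratios of -0.21, -0.01, 0.07 and 0.99, as did Snhg14 and Snhg18, so the difference was not shared by every host, and scaling by TMM factors turns Epb41l4aos below 0.

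Many genes of the translation machinery, and many snoRNA hosts, begin their transcripts with a run of pyrimidines that opens with C, the 5' terminal oligopyrimidine tract. A run of at least 6 pyrimidines opening with C within 10 bases of the RefSeq start, on the strand of the gene, was found for 18 of 34 large subunit genes (52.9%), 14 of 24 small subunit genes (58.3%) and 7 of 16 snoRNA hosts (43.8%), against 21.9% of all promoters. Of translation factor promoters 7 of 29 (24.1%) had one, and of genes at 20 CPM or more 23.0%. None of the 26 promoters of the endoplasmic reticulum list had one, and none of the 16 of the cyclin and kinase list. This search was chosen after the values were seen. Windows of 3 hosts and 3 ribosomal protein genes are shown, with the tract in capitals.
Snhg12, chr4:132308664-132308695, plus strand: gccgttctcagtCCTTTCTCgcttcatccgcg
Gas5, chr1:161035153-161035182, plus strand: ccgccatctcagCCTTTCggagctgtgcgg
Snhg8, chr3:123508319-123508348, minus strand: ccgttcagaagtCTCTTTggctgcgatccg
Rps24, chr14:24490664-24490695, plus strand: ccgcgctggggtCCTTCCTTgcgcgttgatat
Rps12, chr10:23787190-23787213, minus strand: ggccaccgccggCCTTTTCCCCTg
Rps18, chr17:33955646-33955679, minus strand: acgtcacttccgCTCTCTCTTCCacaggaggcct
Within the small subunit list, genes with the tract had a median log2 ratio of -0.55 (13 genes) and those without it of -0.37 (10 genes). Within the large subunit list the medians were -0.46 (16 genes) and -0.52 (14 genes), and among snoRNA hosts -1.08 (5 genes) and -0.41 (7 genes). For translation factors the medians were -0.06 (6 genes) and -0.11 (17 genes).

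Other parts of the translation apparatus had list medians nearer that of all genes than the ribosomal proteins had. Translation factors had a median of 0.03 (-0.12 with TMM factors), with 18 of 34 higher (14 with TMM factors). Their summed level was lower under the knock label, with columns of 16540 to 18475 CPM for control and 15047 to 15558 CPM for knock. Eif1a and Eif1, which place the initiator at the start codon, were lower at -1.39 and -0.67, while the scaffold Eif4g1 was at 45.9 and 122.1 CPM. Genes of ribosome assembly in the nucleolus had a median of 0.09 (-0.06 with TMM factors), with 9 of 29 at or beyond 2-fold upward. Among them Nolc1, Nop56 and Nhp2 had log2 ratios of 1.67, 1.40 and 1.29, and Npm1, nucleophosmin, was lower at -1.17 (-1.26 to -1.07). Mitochondrial ribosomal protein genes had a median of 0.25 over 62 members, with Mrpl18 at 113.2 and 422.1 CPM and Mrpl23 at 255.0 and 113.3 CPM.

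Genes of protein folding did not differ in one direction. For the endoplasmic reticulum and its stress response 25 of 28 genes were lower (27 with TMM factors), the median was -0.41, and the columns of 16 all below. Ero1l, the oxidase that renews disulphide bonds there, had columns from 207.8 over 248.9 to 268.1 CPM and from 28.2 over 45.9 to 55.2 CPM, a log2 ratio of -2.40 (-2.56 to -2.25). Selenok and Selenos, which serve the removal of misfolded proteins, had log2 ratios of -1.54 and -1.47, Hyou1 of -1.17 and Dnajb9 of -1.09, both chaperones. Hspa5, the major chaperone, differed by less, at 6848 and 5351 CPM (-0.36).

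Of the list of cytosolic and mitochondrial chaperones 14 of 17 were higher, with a median of 0.64. Hsp90aa1 was at 208.8 and 481.2 CPM, Hsp90ab1 at 583.4 and 1236 CPM, and their cochaperone Stip1 at 64.7 and 134.1 CPM. Dnajb1, a heat shock partner of Hsp70, was lower at -1.12, and the mitochondrial chaperonin subunit Hspe1 was at -0.36 with overlapping columns. The chaperonin that folds actin and tubulin, TRiC, had a median of 0.12 (-0.04 with TMM factors) over 8 members, none of them 2-fold apart.

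The integrated stress response list, genes raised by Atf4 when translation is curbed, had a median of -0.30 with 13 of 22 lower (16 with TMM factors). Pycr1, of proline synthesis, was at 39.8 and 6.99 CPM (log2 ratio -2.51), and Cth, of cysteine synthesis, at 78.1 and 33.0 CPM. Slc3a2, an amino acid transporter subunit, was at 670.6 and 451.1 CPM. The secreted factor Gdf15 was higher, with columns of 22.5 to 59.7 and 104.5 to 166.1 CPM (log2 ratio 1.75). Atf4 itself had a log2 ratio of -0.36 and Ddit3 of -0.87, both chosen after their values were seen.

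Hypoxia-inducible genes went both ways. Of 13 members 7 were lower, 4 of them at least 2-fold, and the summed level of the list ran from 2204 to 2533 CPM over control columns and from 1306 to 1443 over knock columns. Ndrg1, Fam162a and Car9, a carbonic anhydrase, had log2 ratios of -1.92, -1.71 and -1.68, and Higd1a, of the inner mitochondrial membrane, was at 1284 and 690.3 CPM. Egln3, a prolyl hydroxylase that marks HIF for destruction, was higher, at 49.2 and 126.1 CPM. The core of the hypoxia response element, ACGTG, occurred on either strand in 15 of 20 promoters of the list, against 21.8% of all. Among genes at 20 CPM or more 32.3% had the core. Its letters are also part of the E-box CACGTG. Windows of 3 genes with low ratios are shown, with the core in capitals as it reads on the strand of the gene.
Ero1l, chr14:45318606-45318660, minus strand: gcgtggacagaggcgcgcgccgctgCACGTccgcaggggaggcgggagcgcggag
Fam162a, chr16:36071613-36071667, minus strand: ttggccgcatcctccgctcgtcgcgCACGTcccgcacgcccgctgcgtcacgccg
Car9, chr4:43506983-43507037, plus strand: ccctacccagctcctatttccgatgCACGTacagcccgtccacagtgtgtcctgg
The 8 members with the core had a median log2 ratio of -0.29 and the 2 without it of 0.07, the former including both low and high genes.

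Of 14 enzymes of glycolysis 12 were higher, with a median of 0.47. Ldhb, a lactate dehydrogenase subunit, was at 114.5 and 371.6 CPM, Eno1 at 551.1 and 928.0 CPM and Pkm at 687.0 and 1148 CPM, while the columns of Ldha and Aldoa overlapped. In lipid synthesis Insig1, which holds back the sterol pathway, was lower at -1.57, Fasn, the fatty acid synthase, higher at 1.12, and Scd1, a desaturase, lower at -0.96. Fabp4, a fatty acid carrier, was at 132.3 and 456.2 CPM. Antioxidant genes had a median of 0.43 over 19 members, with Hmox1 at 1.46 and Srxn1 at 1.12 among 5 at least 2-fold higher (2 with TMM factors). Of the iron genes Fth1, the ferritin heavy chain, was at 20829 and 16809 CPM. Ftl1, the light chain, was at 1110 and 1610 CPM, so the 2 chains differed in direction.

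Mitochondrially encoded genes were higher, all 7 measured members with knock columns above every control column and a median of 1.09. The differences ran from a log2 ratio of 0.46 for mt-Nd2 to 1.89 for mt-Co1, whose columns were at 118.2 to 163.8 and 529.1 to 612.3 CPM. The member with the most counts, mt-Nd1, was at 1752 and 4285 CPM. Nuclear genes of the same chain differed little. Complex I had a median of 0.33, complexes II and III of 0.41, complex IV of -0.00 (-0.15 with TMM factors) and ATP synthase of 0.19. Ndufb10 stood out in complex I, with columns of 247.2 to 369.5 and 819.5 to 1085 CPM (log2 ratio 1.78). Chchd10, a protein of the mitochondrial intermembrane space that is in none of these lists, had 175.3 CPM under the control label and 10.9 CPM under the other, or -4.01 in log2 units (-4.31 to -3.71).

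**Figure D5:**
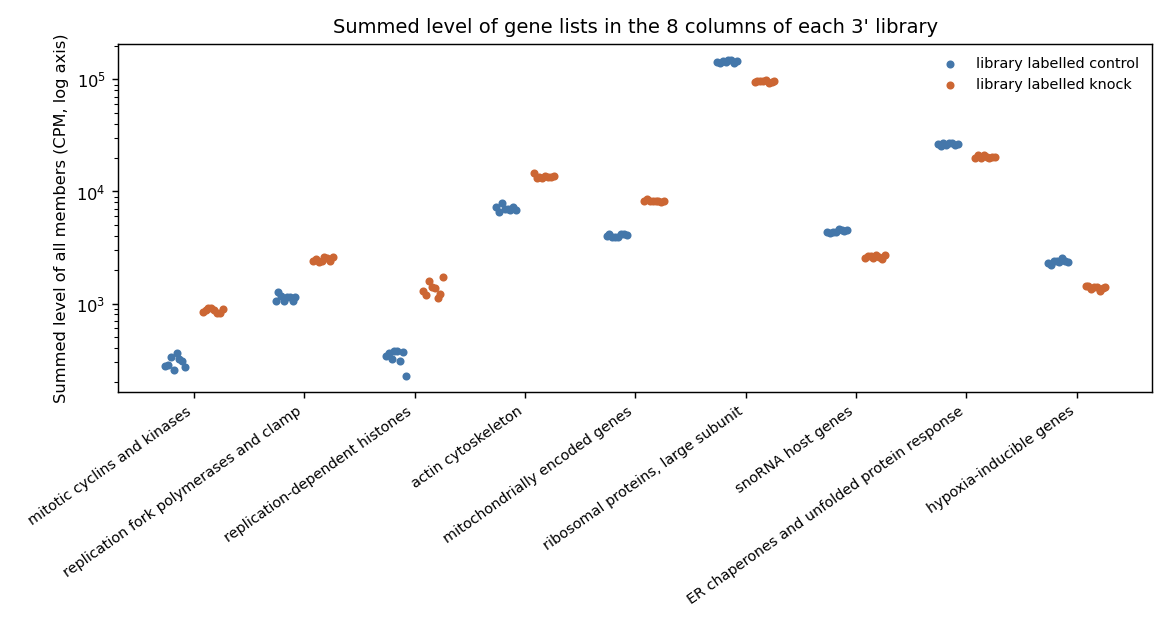
Summed level of all members of 9 gene lists in each of the 8 columns of the 2 libraries, in CPM on a log axis, with points for columns. For each list shown the groups of columns are apart, with control columns of ribosomal proteins, snoRNA hosts, endoplasmic reticulum and hypoxia genes higher and those of the other 5 lists lower.

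Of 8 measured chemokine and cytokine genes 5 were higher and 3 lower. Ccl7, which draws monocytes, had columns from 17.2 over 23.5 to 35.9 CPM in the library labelled control and from 569.9 over 605.0 to 769.6 in the other, a log2 ratio of 4.63 (4.41 to 4.85). Cxcl1, which draws neutrophils, was at 3.66 to 5.84 and 41.7 to 87.8 CPM, and Csf1, the macrophage growth factor, at 45.2 to 80.1 and 187.8 to 309.2 CPM. Lcn2 had a log2 ratio of 1.12 and Ccl9 of 0.53. Saa3, an acute phase protein, was lower with columns of 21.8 to 54.0 and 2.74 to 15.2 CPM (log2 ratio -2.39), as were the alarmin Il33 (-0.97) and Mif (-0.50). The groups of columns were apart for each of these 8 members. Of the NF-kB pathway list 6 of 8 were higher, with the inhibitor Nfkbia at 36.8 and 103.5 CPM and the subunit Rela at 78.0 and 72.3 CPM with overlapping columns. Of 9 interferon-stimulated genes 6 were lower, among them Isg20 at -1.71, while H2-K1, of MHC class I, was higher at 0.89.

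The NF-kB consensus was searched on both strands. It occurred in 9 of 24 chemokine and cytokine promoters (37.5%) and 9 of 19 of the pathway list (47.4%), against 9.55% of all. Among genes at 20 CPM or more 11.7% had it. Of the chemokine and cytokine genes at 20 CPM or more with a promoter, the 3 with a site had a median log2 ratio of 1.90. The 4 without had one of -0.74. Ccl7, with the largest ratio of the list, was not among the 3 with a site. The windows of Cxcl1 and Csf1, members with high ratios, and of Tnfaip2, an NF-kB target with a log2 ratio of 1.56, are shown, with the site in capitals.
Cxcl1, chr5:90891149-90891208, plus strand: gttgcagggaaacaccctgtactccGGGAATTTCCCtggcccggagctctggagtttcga
Csf1, chr3:107760589-107760648, minus strand: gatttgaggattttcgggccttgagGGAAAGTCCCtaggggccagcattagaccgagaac
Tnfaip2, chr12:111442612-111442671, plus strand: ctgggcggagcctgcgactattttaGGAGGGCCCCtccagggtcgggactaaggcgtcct

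Genes of the cytoskeleton had higher levels under the knock label. Of the actin list 25 of 28 were higher and 14 at least 2-fold, with a median of 0.96. Gsn, which severs actin filaments, had columns of 18.7 to 52.9 and 234.3 to 287.0 CPM (log2 ratio 2.72). Cald1 and Tpm2, which bind along filaments, had log2 ratios of 2.25 and 2.14, and Actb was at 1953 and 4127 CPM. Of the tubulin list 9 of 10 were higher and 8 at least 2-fold, with a median of 1.42. Tubb2a had a log2 ratio of 2.04, Tuba1c of 1.56 and Stmn1, which binds free tubulin, of 1.47. Map4, a microtubule binding protein named after its value was seen, was the member that was lower, at -0.24.

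Adhesion and matrix genes were less uniform. Of the focal adhesion list 11 of 18 were higher, with Cd44, the hyaluronan receptor, at 2.26 and Tln1, talin, at 1.53, and Lims1 lower at -0.98. Of the YAP and SRF targets Ankrd1 was lower, with columns of 67.1 to 116.9 and 10.5 to 29.4 CPM (log2 ratio -2.19), and Flna, a filamin, higher at 1.17. The matrix list had 11 of 13 members higher, with Col1a1 at 41.7 and 117.2 CPM, Col4a2 at 24.8 and 95.1 CPM and the osteopontin gene Spp1 at 196.1 and 490.0 CPM. Col8a1 was at 0 to 4.97 and 28.3 to 58.9 CPM, a log2 ratio of 3.97 (3.31 to 4.72). Cspg4, a membrane proteoglycan outside these lists, had columns of 12.5 to 35.9 and 217.9 to 307.6 CPM (log2 ratio 3.24). Of the TGF-beta and BMP list 5 of 6 were higher, among them Id1, a BMP target, at 6.65 and 45.7 CPM, and Bmp1, a procollagen protease, at 8.91 and 38.4 CPM.

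In the nucleus Lmna, lamin A and C, had columns from 189.1 over 250.4 to 308.7 CPM and from 788.6 over 1177 to 1344 CPM, a log2 ratio of 2.20 (2.12 to 2.27), and Lmnb2 one of 2.73. Emd, emerin, had a log2 ratio of 0.95 that became 2.24 without column 2 of the library labelled control. The long noncoding RNA Neat1 was at 61.6 and 296.5 CPM and Malat1 at 1502 and 2873 CPM, while Pvt1 and Tug1 overlapped. Of 14 SR splicing factor genes 12 were higher, 6 at least 2-fold (2 with TMM factors), led by Srrm2 at 1.91. Proteasome genes had a median of 0.34 over 38 members, with Psme3 at 2.61, and lysosome genes of 0.53 over 22. Of 16 autophagy genes 10 were lower and none 2-fold apart, with a median of -0.30. With TMM factors 12 were lower, 2 of them at least 2-fold, and the median was -0.45.

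Several of the largest ratios belonged to genes of other kinds. Htr1d, a serotonin receptor gene, had columns from 0 over 4.34 to 7.31 CPM and from 248.9 over 290.1 to 343.1 CPM, a log2 ratio of 6.16 (5.63 to 6.74). Sbk2, a kinase gene, was at 5.66 and 157.3 CPM, Crip1 at 26.9 and 232.3 CPM and Nek6, a mitotic kinase, at 15.4 and 126.4 CPM. In the other direction Rasgrf1, an exchange factor for Ras and a member of the list of Ras and MAPK feedback genes, had columns from 1264 over 1550 to 1875 CPM and from 51.9 over 63.3 to 106.3 CPM (log2 ratio -4.62, -4.74 to -4.50). Vmn2r71, a vomeronasal receptor gene, was at 421.9 and 17.1 CPM, and L3mbtl1, Gpcpd1 and Coro2b had log2 ratios of -3.22, -3.11 and -2.88. Grik4 had a log2 ratio of -2.67 with overlapping columns. Column 7 of the library labelled control stood at 361.8 CPM against a median of 29.4, and without it the ratio was -2.13.

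The CBTi-seq sample gave other values for the same lists, and the assays share the cell line and the label but not the counting. For mitotic cyclins and kinases the median log2 ratio of its columns named knock to those named control was 0.05, against 1.84 in the 3' libraries, over 13 genes in both. For large subunit ribosomal proteins it was 0.14 against -0.51 (42 genes), for the endoplasmic reticulum list 0.26 against -0.46 (27 genes), and for snoRNA hosts 0.08 against -1.08 (11 genes). For hypoxia-inducible genes it was -0.85 against -0.22 (13 genes), and for p53 targets 0.55 against 0.46 (13 genes). Named genes at least 2-fold apart in the 3' libraries and counted in both assays were also compared. Of 197 higher ones 115 were also higher in CBTi-seq, 4 of them by 2-fold. Of 47 lower ones 19 were also lower, 7 of them by 2-fold, and 28 were higher. Over all 4602 genes set side by side, 2302 were higher in CBTi-seq. Values near those of the 3' libraries, chosen after they were seen, were those of Car9 (-1.66 against -1.68), Isg20 (-1.97 against -1.71), Lcn2 (1.30 against 1.12) and Cdkn1a (0.98 against 0.95). Cxcl1 stood at 3.03 against 3.86 and Chchd10 at -2.56 against -4.01. Ccl7 was at 156.4 and 311.9 CPM there, Ero1l had a log2 ratio of -0.98 (-1.11 to -0.84), and Rrm2 of -0.46 (-0.56 to -0.35). Each CBTi-seq value also comes from 1 sample and was not tested.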

How the data were processed

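For each 3' library the authors deposited a table of counts, whole numbers without normalization, with genes in rows and 8 numbered columns. The submitters' processing notes name STAR 2.7.11b, Picard and FastQC, with the builds GRCm38 and GRCh38, and assign no role to any. The sources used here do not say which tool counted, whether it used strand, or whether a count is a read or a UMI. Samples were grouped by title.

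Of 55402 Ensembl IDs, 55141 matched GENCODE vM21, rows that share a symbol were added up, and unmatched rows held 0.0194% (control) and 0.0329% (knock) of the counts. Columns were summed and scaled to the library total (CPM). Ratios carry exact conditional (Clopper-Pearson) 95% intervals for counting error only, so they are narrower than the spread of columns gives, and too narrow where counts are amplified reads. With 1 library per label no test was made: calls are by size, at least 2-fold at 50 CPM or more, and list members count from 20 CPM. The calculation was checked on simulated data.

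The comparison, the 62 gene lists, the 9 marker lists and the rule for named genes were chosen with earlier results of these data known. The rule took the ribonucleotide reductase genes, the 12 largest ratios in each direction at 50 CPM or more (a count in 25% of the columns of the higher library, same direction without its highest column, no unnamed gene models), and up to 6 list members by ratio and 2 by level. For histones, cytokines, mitochondrially encoded and snoRNA host genes it took every member. Alternatives were equal column weights, TMM factors from edgeR 4.0.16, factors by median of ratios from DESeq2 1.42.0, library totals leaving out ribosomal protein and mitochondrially encoded genes, other level limits, thinning, and leaving out each column. Coordinates are from GENCODE vM21 (GRCm38), and promoter sequences from RefSeq (GRCm38.p6). Promoters were also searched for the CArG box and the ATF4 composite site. Actin genes with a CArG box had a median log2 ratio of 0.46 (4 genes), and those without of 1.19 (22 genes). None of 6 YAP and SRF targets at 20 CPM or more had the box. Integrated stress response genes with the ATF4 site had a median of -1.23 (2 genes), and those without of -0.30 (19 genes). Tables and intervals were computed with pandas 2.3.3, scipy 1.17.1 and numpy 2.4.6 under Python 3.11.15, factors under R 4.3.3 and figures with matplotlib 3.10.9. No table column was without a sample.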

Additional observations from a re-analysis of the deposited data

How the results depend on the processing

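No paired analysis was possible because each label has 1 library and columns carry numbers only. Of the 459 named genes 255 were 2-fold apart. Over the 5 alternatives run for single genes and the 16 left-out columns, 0 of these changed sign and 43 came under 2-fold in at least one. Of the genes under 2-fold, 15 changed sign, all with log2 ratios of at most 0.14 in size. Among the genes that came under 2-fold when a column was left out were Orc4, Gins3, Rps18, Rps27a, Tpr and Topbp1. The cause of the changes below was not tested.

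Genes at least 2-fold lower numbered 128, 197 with TMM factors and 199 with median-of-ratios factors. With limits of 20 CPM, 100 CPM, and 10 counts in all, genes higher and lower numbered 986 and 324, 176 and 79, and 4124 and 2021. List medians below are less the median of all genes. With members from 50 CPM, replication fork genes went from 0.91 to 1.34, kinesins from 1.31 to 0.97, APC/C genes from 0.45 to 0.16, hypoxia genes from -0.40 to -0.94, snoRNA hosts from -0.93 to -2.19, SR factors from 0.44 to 0.95, chemokines from 0.65 to 0.98, and focal adhesion genes reversed from 0.24 to -0.24. With no limit but 10 counts, mitotic cyclins and kinases came to 1.38, kinetochore genes to 0.75, APC/C genes to 0.11, histones to 1.501, cholesterol synthesis to 0.40, iron handling to -0.27, complex IV to -0.10, nucleolar genes to 0.33, chemokines to 0.20, nuclear long noncoding RNAs to 0.30, and hypoxia genes reversed to 0.14. Thinned to the total of the shallowest column, homologous recombination genes came to 0.50 and iron handling to -0.35. Over left-out columns the medians ranged from 0.45 to 0.96 for homologous recombination, from -0.65 to -0.28 for hypoxia, from -0.19 to -0.11 for complex IV and from -0.37 to 0.36 for iron handling. Of 61 list medians, 11 changed sign in some alternative.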

Other observations

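A few genes were nearly absent from 1 library. Of the genes at 20 CPM or more on average, 3 had no more than 3 counts in the library labelled control, and 0 had so few in the one labelled knock. All were chosen after their values were seen, as were the other genes named here. Arhgap40 had 1 count in the library labelled control and columns of 45.6 to 88.9 CPM in the other (log2 ratio 9.12, 6.64 to 14.43). Rbp7, a retinol binding protein gene, and the noncoding Gm33180 also had 1 count there, and 457 and 453 counts in the library labelled knock. Clic6, a chloride channel gene, had 4 counts and 614. In the other direction Acox2, a peroxisomal oxidase gene, was at 50.1 to 77.8 CPM over the control columns and 0 to 2.66 CPM over the knock columns (log2 ratio -6.40, -7.73 to -5.35). Sectm1a was at 39.8 and 1.09 CPM, and Cyp4b1 at 39.6 and 1.64 CPM.

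The mast cell tryptase gene Tpsab1 was abundant in both libraries of this fibroblast line, with columns of 160.6 to 209.9 and 1320 to 1509 CPM, a log2 ratio of 2.89 (2.80 to 2.97). Eno3, the muscle form of enolase, was at 31.6 and 228.0 CPM, and Pglyrp3, a peptidoglycan recognition protein gene, at 414.9 and 84.9 CPM.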
